A study of Mus musculus with 138 samples.

Results

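The lambdoid suture, where the parietal bones meet the interparietal and occipital bones at the back of the skull, was compared with the sagittal suture, the midline joint between the left and right parietal bones, in wild type C57BL/6J mouse embryos at E18.5. The comparison used every laser-captured library of suture mesenchyme (SM) from these sutures at this age, 5 lambdoid and 5 sagittal, which is 10 of the 138 samples of the series. Each library was made from RNA of 1 embryo, collected by laser-capture microdissection, amplified and sequenced, and its values are raw read counts per gene. None of the embryos carried a mutation or received a treatment. Also used were the captured parietal osteogenic front (OF), the growing bone edge, of the same 10 embryos, SM of both sutures at E16.5 from other embryos (5 and 5 libraries), and 16 libraries of complete E18.5 sutures. The complete-suture libraries form 4 sets, named C, IF, L and S in the labels, each of which holds the coronal, frontal, lambdoid and sagittal suture once. The lambdoid libraries and the sagittal libraries of every captured region carry the letters L and S, but the labels do not state that a set is a library batch. All 16 complete-suture libraries are numbered replicate 1, so the spread between them may be technical.

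Sutures are the growth sites of the skull vault. Their mesenchyme keeps osteoprogenitors undifferentiated while cells at the osteogenic fronts become osteoblasts, and it sits between the dura mater on the inner side and fascia, dermis and muscle on the outer side. Hedgehog ligands from bone-forming cells act on this mesenchyme. They bind the receptor Ptch1, which releases Smo and activates the Gli transcription factors. Gli1, Ptch1 and Hhip, a surface protein that sequesters the ligand, are themselves hedgehog targets, and Gli1-positive cells are known as progenitors in the sutures of mice after birth.

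Total counts were 7305627 to 8376486 in lambdoid SM and 13162255 to 16295927 in sagittal SM, so that no sagittal library was as shallow as any lambdoid library. The same gap separated control set L (9534171 to 10275328) from control set S (14088921 to 14952534). Mitochondrial genes took 15.95% to 22.9% of the lambdoid and 16.21% to 22.13% of the sagittal counts. Spearman correlations of the libraries were 0.917 to 0.956 within lambdoid SM, 0.960 to 0.978 within sagittal SM and 0.909 to 0.940 between them. Lambdoid replicates 3 to 5 and sagittal replicates 1 to 3 have litter identifiers of the same date, and lambdoid replicate 5 shares its litter with sagittal replicates 1 to 3. Lambdoid replicates 3 and 4 share a litter, and sagittal replicates 4 and 5 share a later one. Sagittal replicates 1 to 3 stood apart in having more reads on neuronal genes, and lambdoid replicate 5 and sagittal replicate 3 in having more reads on erythroid genes, with summed levels of 7032 and 4738 CPM (counts scaled to a common library size) against 187.6 to 1358 in the other 8 libraries.

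The labelled tissue was checked against 6 markers of suture mesenchyme. Prrx1, a homeobox factor of craniofacial mesenchyme, was at 1150 ± 46.6 CPM (mean ± SD, n = 5) in lambdoid and 968 ± 37.7 CPM in sagittal SM. Its log2 difference, lambdoid less sagittal, was 0.21 ± 0.11 (SE) with an adjusted p of 0.182 by edgeR's quasi-likelihood test. Pdgfra, a growth factor receptor of mesenchymal progenitors, had 236 ± 30.1 and 184 ± 36.8 CPM (adjusted p = 0.104), and the collagen gene Col3a1 had 2476 ± 434 and 2986 ± 290 CPM (adjusted p = 0.129). Twist1, Six2 and Postn were present in every library and lower in lambdoid SM. Runx2, the osteoblast lineage factor, was at 417 ± 108 and 392 ± 28.5 CPM (adjusted p = 0.859). Ibsp, a bone matrix gene that marks osteoblasts, varied widely among the libraries of a suture, from 1.06 to 171 CPM in lambdoid and from 20.9 to 298 CPM in sagittal SM.

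Of 19768 genes tested, 3001 differed between lambdoid and sagittal SM at an adjusted p under 0.05, which is 15.2%. Of these, 1122 were higher (5.68% of genes tested) and 1879 lower in the lambdoid suture (9.51%). With total counts in place of trimmed-mean (TMM) scaling, 1537 were higher and 1381 lower, and with median-ratio size factors 1475 and 1645, so the excess of lower genes depended on the scaling. The median difference of all genes was 0.04 on the log2 scale with TMM and 0.17 with total counts. The 5 lambdoid libraries did not overlap the 5 sagittal libraries for 3430 genes (17.4%), and lay above them for 1549 (7.84%) and below them for 1881 (9.52%). With the litters of the shared date alone, 1118 genes differed (5.66%), 306 higher (1.55%) and 812 lower (4.11%).

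The complete-suture controls carried a large part of the same differences between sets that were made of the same sutures. Set L and set S differed for 6470 genes (32.7%), of which 2988 were higher and 3482 lower in set L. Of the 3001 genes that differed between lambdoid and sagittal SM, 2182 differed between the sets in the same direction (72.7% of the SM genes and 33.7% of the set genes) and 38 in the opposite direction. The offset between the sets is therefore given beside the difference of many named genes, though not of all. A difference printed without an offset has not been set against it here. In the lower direction 1512 of 1879 genes had such an offset, and in the higher direction 670 of 1122.

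The genes of the ribosome were the plainest case. In a list of 82 ribosomal protein genes, assembled after the values were seen, 80 were lower in lambdoid SM (9.51% of all genes) with a median of -1.90, and 80 were lower in set L with a median of -1.66, where 17.6% of all genes were lower and 15.1% higher. Their summed level was 9270 to 10630 CPM in lambdoid and 30670 to 39680 CPM in sagittal SM, and 11900 to 17140 CPM in set L and 31570 to 45190 CPM in set S. Rps29, a protein of the small ribosomal subunit, was at 17.9, 19.04, 23.3, 19.1 and 18.9 CPM in the lambdoid and 181, 184, 220, 238 and 228 CPM in the sagittal libraries. Its difference of -3.45 ± 0.26 stood beside a set offset of -3.04, and the difference less the offset was -0.40 (adjusted p = 1). Rps12, Rplp2 and Fau, also of the ribosome, and Atp5e, of the mitochondrial ATP synthase, differed by -3.0, -2.81, -2.79 and -2.90, with set offsets of -2.43, -2.66, -2.43 and -2.26. The short genes Mir703 and S100a13, whose protein binds calcium, were lower by -2.79 and -2.82 with offsets of -2.22 and -1.88. Lower calls made up 13.3% of genes with under 1000 exonic bases and 6.19% of genes with 8000 or more, and higher calls 3.15% and 12.2%. From 1000 bases up the median differences rose with length. They were -0.13 from 1000 to 2000 bases, -0.03 from 2000 to 4000, 0.06 from 4000 to 8000 and 0.11 at 8000 or more. Genes under 1000 bases departed from this, with a median of 0.17. The median set offsets were 0.07 under 1000 bases and, in the same order above it, -0.19, -0.07, 0.04 and 0.14. Whether the preparation of the libraries took part in these differences was not tested.

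**Figure D1:**
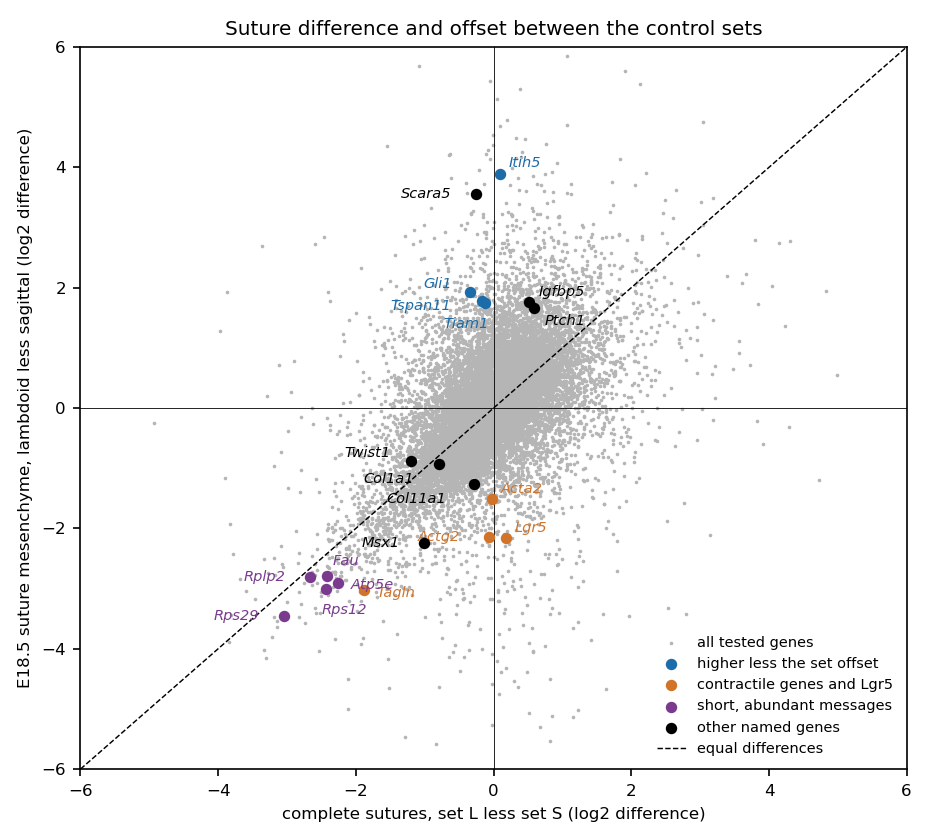
Log2 difference of every tested gene between lambdoid and sagittal SM at E18.5 (vertical axis) against the log2 difference between complete-suture sets L and S (horizontal axis). Grey points are genes, the dashed line marks equal values, and genes beyond 6 in either direction are not drawn. Ribosomal protein genes such as Rps29 lie near the dashed line, while Itih5, Gli1, Tspan11, Tiam1, Acta2, Actg2 and Lgr5 lie away from it, and Gli1 has a set offset of -0.35 in the direction opposite to its SM difference.

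The contrast of the SM difference less the set offset left 6 genes (0.0304% of those tested) with an adjusted p under 0.05, and 1111 at an unadjusted p under 0.05. The controls numbered 4 libraries a set in this fit, and the spread was shared by all 20 captured groups. Of the 6 genes, 5 were higher (0.0253%) and 1 lower (0.00506%). Fitted on the 10 SM and 8 control libraries alone, 202 genes passed (1.02%), 146 higher (0.739%) and 56 lower (0.283%).

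Gli1, the transcriptional effector and target of hedgehog signalling (mm10 chromosome 10, 127329882 to 127341974, minus strand), was among the 6. Its level was 58.8, 49.2, 87.2, 122 and 69.3 CPM in the lambdoid libraries and 35.1, 24.4, 18.1, 11.4 and 9.55 CPM in the sagittal libraries. Every lambdoid library was above every sagittal library, and sagittal replicates 4 and 5, of the later litter, were the lowest. The log2 difference was 1.93 ± 0.31 (adjusted p = 1.1e-06), the set offset was -0.35 (adjusted p = 0.0117), and the difference less the offset was 2.29 (adjusted p = 0.00633). The offset ran against the SM difference, so that the value less the offset is larger than the SM difference itself. In complete sutures Gli1 was at 25.3 ± 4.07 CPM (SD, n = 4) in the lambdoid and 25.3 ± 4.28 CPM in the sagittal suture, a difference of -0.01 (adjusted p = 0.951).

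Tspan11, which encodes a membrane protein of the tetraspanin family (chromosome 6, 127887589 to 127953977, plus strand), was at 118, 114, 150, 191 and 134 CPM in the lambdoid libraries and 51.4, 51.2, 35.7, 30.9 and 32.3 CPM in the sagittal libraries. The groups did not overlap. The difference was 1.77 ± 0.20, the set offset was -0.17, and less the offset the difference was 1.96 (adjusted p = 1.35e-05), the smallest p of this contrast.

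Tiam1, an activator of the small GTPase Rac1 (chromosome 16, 89787111 to 90143769, minus strand), had 53.3, 43.4, 114, 109 and 59.5 CPM in lambdoid and 27.6, 27.6, 17.9, 17.2 and 20.4 CPM in sagittal SM. Its lambdoid libraries fell into a lower and a higher pair with replicate 5 near the lower ones, and all 5 were above the sagittal libraries. The difference was 1.74 ± 0.22 and less the set offset 1.87 (adjusted p = 0.000307).

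Itih5, whose product belongs to the inter-alpha-trypsin inhibitor heavy chains that bind hyaluronan (chromosome 2, 10153571 to 10256529, plus strand), was at 52.3, 83.1, 17.7, 27.2 and 7.34 CPM in lambdoid and 2.5, 1.08, 2.37, 2.08 and 4.24 CPM in sagittal SM. The lambdoid libraries spanned a wide range, with replicate 5 closest to the sagittal ones. The difference was 3.89 ± 0.60 and less the set offset 3.80 (adjusted p = 0.0149). Complete lambdoid sutures also held more Itih5 than complete sagittal sutures, by 0.94 (adjusted p = 1.47e-13, from libraries whose spread may be technical).

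The last pair of the 6 had overlapping libraries, which the rule for named genes leaves out, and are named because the count is small. H2afz, a histone H2A variant, overlapped between the groups (44.4 to 78.9 and 26.9 to 70.1 CPM), had a difference of 0.45 (adjusted p = 0.15), and passed through its set offset of -1.26. Nr4a3, a nuclear receptor, was the gene that was lower. It was at 10.4, 5.66 and 11.8 CPM in sagittal replicates 1 to 3, at 0.78 and 0.696 CPM in sagittal replicates 4 and 5, and at 0 to 0.742 CPM in the lambdoid libraries. Without sagittal replicates 1 to 3 its difference was -1.65 (adjusted p = 0.253).

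Of 21 genes of the hedgehog list, 19 were tested, and 6 were higher and 0 lower in lambdoid SM, where 5.68% of all genes were higher and 9.51% lower. The median difference of the list was 0.40 against 0.04 for all genes. Between the control sets 6 of the 19 were higher in set L (15.1% of all genes) and 3 lower (17.6%), with a median of 0.20, and less the set offset the median was 0.23. The receptor gene Ptch1 (chromosome 13, 63508328 to 63573598, minus strand) was at 170, 126, 351, 361 and 250 CPM in lambdoid and 114, 115, 77.1, 40.9 and 41.6 CPM in sagittal SM. The groups did not overlap, and lambdoid replicates 1 and 2 were nearest to the sagittal libraries, as they were for Gli1. The difference was 1.66 ± 0.22 (adjusted p = 5.15e-09), with a set offset of 0.59 (adjusted p = 5.27e-12). Less the offset it was 1.07 with an adjusted p of 0.19. With the litters of the shared date alone, Gli1 (adjusted p = 0.000736) and Ptch1 (adjusted p = 4.55e-07) were the 2 genes of the list that stayed higher.

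The called transducers and co-receptors of the pathway had smaller differences. Gli2, the main activating Gli factor, was at 78.8 to 96.6 CPM in lambdoid and 50.0 to 63.6 CPM in sagittal SM, a difference of 0.63 ± 0.19 (adjusted p = 0.0125) with a set offset of -0.22. Cdon, a co-receptor for the ligand, differed by 0.55 with an offset of 0.45, and its call was lost without lambdoid replicate 2. Sufu, which holds Gli proteins in the cytoplasm, differed by 0.61 (adjusted p = 0.0364), a call that was lost in 8 of the 10 fits that left out a library. Smo, Gli3, Boc and Gas1 differed by 0.33, 0.07, 0.48 and 0.18 and did not pass the test. Of the ligands, Ihh stayed at or under 1.47 CPM in all 10 libraries (adjusted p = 0.55), and 1 of the 21 genes, Shh, had no count in any of them, which allows up to 3 counts a library.

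Hhip did not pass the test at E18.5. It was at 16.9, 5.69, 38.7, 37.5 and 16.8 CPM in lambdoid and 21.7, 21.5, 12.1, 4.55 and 5.25 CPM in sagittal SM. The libraries overlapped, with the highest in lambdoid replicates 3 and 4 and the lowest sagittal values in replicates 4 and 5. The difference was 0.79 ± 0.35 (adjusted p = 0.121). Without sagittal replicates 1 to 3 it was 2.18 (adjusted p = 0.000952), and with the litters of the shared date alone the adjusted p was 0.372.

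**Figure D2:**
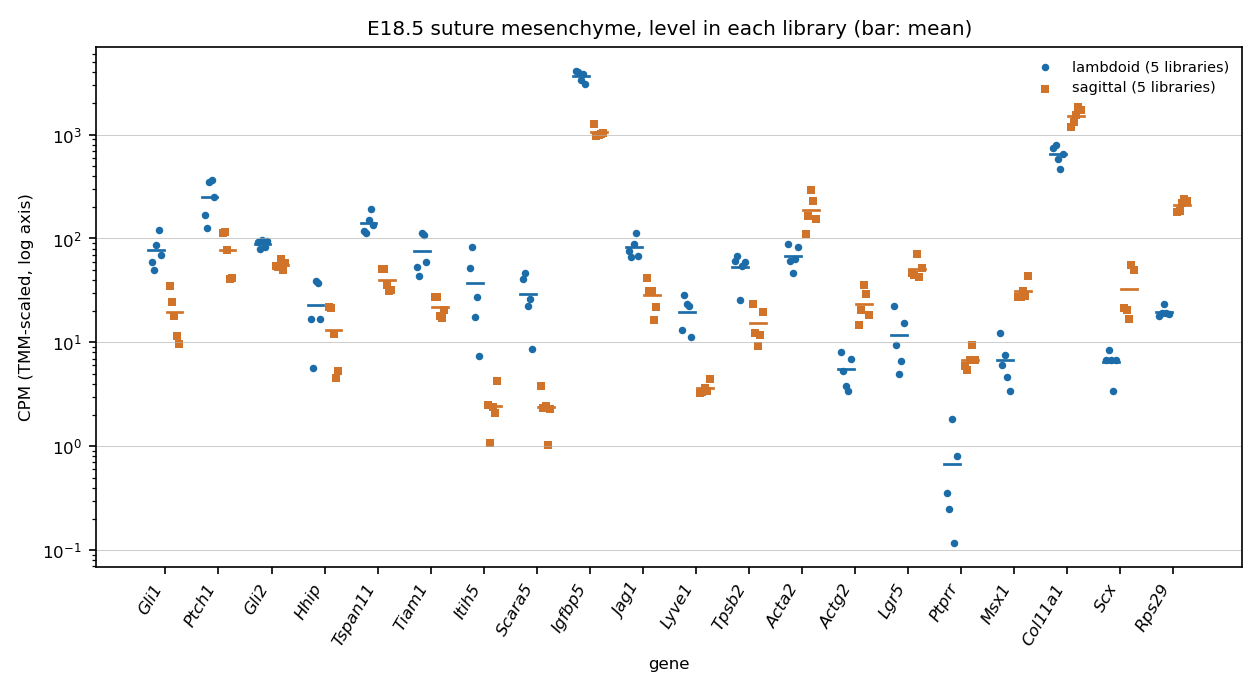
Level of 20 named genes in each E18.5 SM library, in CPM on a log axis, with lambdoid libraries as blue circles, sagittal libraries as orange squares and bars at the means of 5. Gli1, Ptch1, Tspan11, Tiam1 and Itih5 show no overlap between the sutures and lie higher in the lambdoid one, Acta2, Actg2 and Lgr5 lie lower, and Hhip overlaps. A value of 0 has no point on the log axis.

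Among genes with known symbols, at least 5 CPM in the lambdoid mean and no overlap between the sutures, the 10 with the largest differences in the higher direction were Efhd1 (4.37), Itih5 (3.89), Tmeff2 (3.60), Scara5 (3.56), Tnxb (3.32), Siglec1 (3.27), Col6a6 (3.24), Agtr2 (3.19), AI593442 (2.83) and Irf4 (2.82), as log2 differences. Efhd1 had a set offset of -0.01, and complete lambdoid less complete sagittal sutures gave -2.54, opposite in sign to SM. For Tmeff2 these values were 0.47 and 0.33. Scara5, a ferritin receptor, was at 41.0, 47.0, 22.5, 26.3 and 8.62 CPM in lambdoid and 3.85, 2.36, 2.44, 1.04 and 2.28 CPM in sagittal SM. Its groups did not overlap, and its set offset was -0.26. Tnxb, a matrix protein of loose connective tissue, was at 15.6 to 69.5 against 3.05 to 6.13 CPM, and Agtr2, the type 2 angiotensin receptor, at 17.2 to 54.4 against 2.29 to 4.51 CPM with a set offset of 0.95. In 9 of these 10 genes, Irf4 included, lambdoid replicate 1 or 2 had the highest level, and AI593442 was highest in lambdoid replicate 3. The calls of Tmeff2 and Irf4 were lost without lambdoid replicate 2, and that of Irf4 also without any 1 of sagittal replicates 2 to 5.

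In the list of dermis and fascia fibroblast genes, 8 of 20 were higher and 2 lower, beside 5.68% and 9.51% of all genes. The median of the list was 0.94, while the median set offset was -0.15. Mfap5, a microfibril protein (3.28), Pi16 and Dpp4, markers of fascia and adventitial fibroblasts (3.18 and 2.72), and Clec3b (2.89) rose most. Dpp4 was at 17.1, 36.7, 6.84, 23.0 and 4.78 CPM in lambdoid and 3.97, 2.83, 2.8, 1.5 and 1.96 CPM in sagittal SM. Ly6a and Cd34, surface markers of mesenchymal progenitors and endothelium, were higher by 2.43 and 1.3, as were Lef1 and Efemp1. Thy1, another such surface marker, was at 17.4 to 45.7 against 5.23 to 14.2 CPM, a difference of 2.03 (adjusted p = 2.06e-05) with an offset of 0.21.

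With the litters of the shared date, 2 of the 20 genes were higher (1.55% of all genes in that fit) and 0 lower (4.11%), with a median of 0.99, and the call of Dpp4 was lost (adjusted p = 0.319). In the fit of all libraries 2 members of that list were called lower, Sfrp2 and Crabp1. Sfrp2, a secreted Wnt modulator, was at 1706 to 2676 CPM in lambdoid and 3459 to 4106 CPM in sagittal SM, a difference of -0.77 (adjusted p = 0.0373) with a set offset of -0.59, and Crabp1 was lower by -2.58. The summed level of the 20 genes was therefore 4153 to 5721 CPM in lambdoid and 5999 to 6804 CPM in sagittal SM. Complete sutures differed from the captured tissue here. Over all genes 4807 differed between complete lambdoid and sagittal sutures (24.3%), 2114 higher (10.7%) and 2693 lower (13.6%). Complete lambdoid sutures held less Dpp4 (-1.49), Tnxb (-1.62), Mfap5 (-1.35), Pi16 (-3.09), Ly6a (-1.40) and Cd34 (-0.47) than complete sagittal sutures, and of the 20 list genes 12 were lower (13.6% of all genes) and 4 higher (10.7%) in them. The boundaries of the captured area were not measured, and fewer cells of a type cannot be told apart from less RNA per cell in libraries of this kind.

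Of 18 macrophage genes, 7 were higher in lambdoid SM (5.68% of all genes), 0 were lower (9.51%) and 11 did not pass the test. Their median was 0.61, beside a median set offset of -0.36, and their summed level was 301.5 to 563.4 CPM in lambdoid and 220.1 to 264.1 CPM in sagittal SM. Lyve1, a hyaluronan receptor of resident macrophages and lymphatic vessels, was at 13.2, 28.6, 23.6, 22.4 and 11.2 CPM against 3.27, 3.3, 3.66, 3.38 and 4.49 CPM. The difference of 2.41 ± 0.69 (adjusted p = 0.00852) had a set offset of -0.29. The complement gene C1qc was at 17.4 to 40.6 against 7.61 to 11.3 CPM, a difference of 1.49 with an offset of -0.50. C1qa (2.08) and the macrophage receptor gene Adgre1 (1.52) also rose, and each lost its call in at least 1 fit that left out a library. With the litters of the shared date 1 macrophage gene was higher, where 1.55% of all genes were, with a list median of 0.42, and Lyve1 had an adjusted p of 0.107. Siglec1, a sialic acid receptor of tissue macrophages, was at 3.61 to 14.1 against 0.065 to 1.71 CPM.

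Of 9 mast cell genes tested, 2 were higher (5.68% of all genes), 0 lower (9.51%) and 7 not called, with a median of 1.63. Of 3 neutrophil and platelet genes 0 were called, with a median of -0.28. Tpsb2, a mast cell tryptase, was at 60.2, 67.4, 25.5, 54.6 and 59.9 CPM in lambdoid and 23.5, 12.3, 9.18, 11.8 and 19.8 CPM in sagittal SM. The groups did not overlap, but the adjusted p of 0.0457 was lost in 8 of the 10 fits that left out a library. Kit, the receptor for stem cell factor in mast cells and melanocytes, was higher by 1.63 (adjusted p = 0.00246) with an offset of 0.79. With the litters of the shared date 0 mast cell genes were called, where 1.55% of all genes were higher, with a list median of 1.40. The summed level of the list was 322.5 to 504.0 CPM in lambdoid and 93.6 to 264.6 CPM in sagittal SM. In complete sutures 6 mast cell genes were lower in the lambdoid suture (13.6% of all genes) and 0 higher (10.7%).

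**Figure D3:**
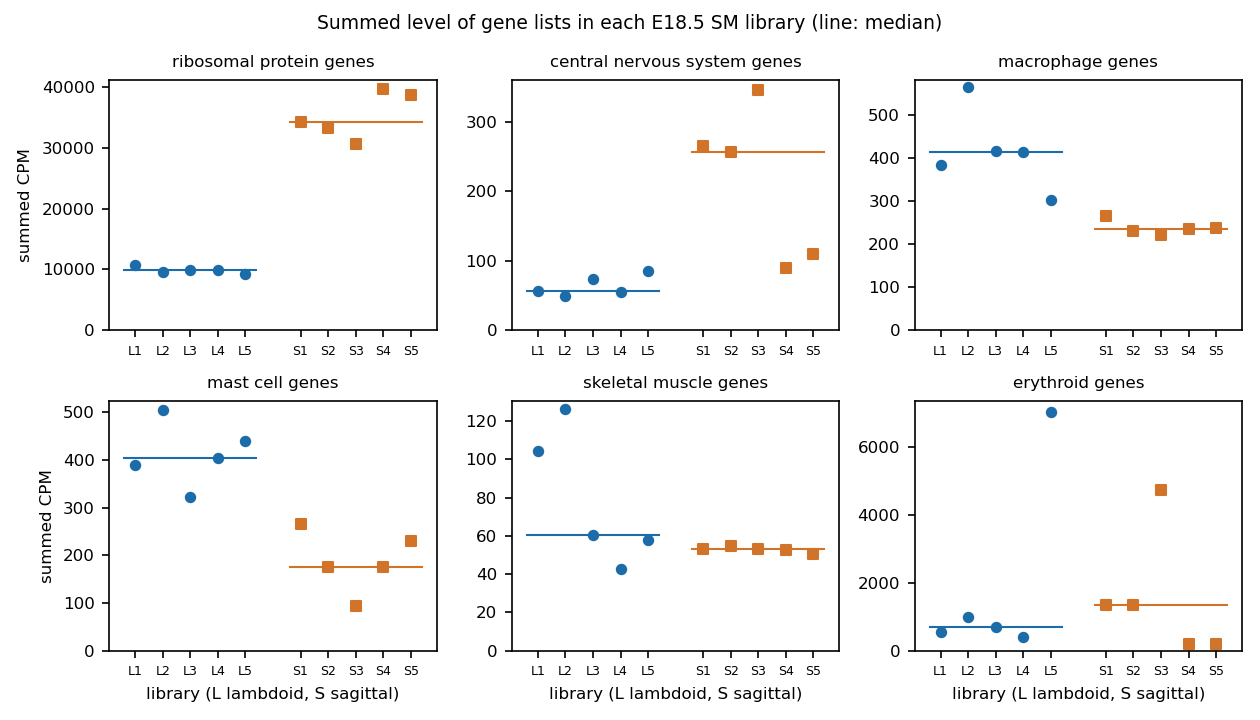
Summed CPM of 6 gene lists in each E18.5 SM library, on linear axes that start at 0, with L1 to L5 the lambdoid and S1 to S5 the sagittal replicates and lines at the medians. The ribosomal, macrophage and mast cell sums separate the sutures, the central nervous system sum is raised in S1 to S3, the muscle sum in L1 and L2, and the erythroid sum in L5 and S3.

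Other signalling lists are set beside 5.68% of all genes higher and 9.51% lower. Of 37 BMP genes 2 were higher and 3 lower, of 23 TGF-beta genes 3 and 1, and of 20 ephrins and Eph receptors 2 and 2. Without sagittal replicates 1 to 3 the BMP counts were 5 and 0 (2.6% and 7.61% of all genes). Of 40 Wnt ligands, receptors and targets 7 were higher, namely Wnt2, Lef1, Wnt2b, Wnt5a, Fzd7, Lgr4 and Lrp6, and 1 lower, Lgr5. The Wnt median was 0.06, and with the litters of the shared date 2 were higher (1.55% of all genes) and 1 lower (4.11%). Of 17 Notch genes tested, 4 were higher (5.68% of all genes) and 1 lower (9.51%), with a median of 0.68 and a median set offset of -0.31. Jag1, a Notch ligand, was at 76.5, 65.7, 88.4, 112 and 68.2 CPM in lambdoid and 41.5, 31.6, 31.0, 16.6 and 21.8 CPM in sagittal SM. The groups did not overlap, and the difference was 1.49 ± 0.22 (adjusted p = 1.1e-07) with an offset of 0.10. Less the offset it was 1.40, with an adjusted p of 0.0518. The receptors Notch1 and Notch3 were higher by 1.31 and 0.97 with offsets of 0.30 and -0.01, and Dlk1, a non-canonical ligand, by 1.19 with an offset of -0.55. Jag1 and Notch1 were higher with the litters of the shared date too (adjusted p = 0.000469 and 0.033).

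In the insulin-like growth factor system 3 of 15 genes were higher (5.68% of all genes) and 3 lower (9.51%), with a median of -0.004. Igfbp5, a binding protein of the growth factor, was the most abundant of the named genes that rose, at 4121, 3969, 3331, 3814 and 3041 CPM in lambdoid and 1260, 975, 996, 1005 and 1028 CPM in sagittal SM. The difference was 1.76 ± 0.28 (adjusted p = 8.7e-07), with an offset of 0.51. Pappa2, a protease that cleaves Igfbp5, rose with it by 1.41 with an offset of 0.28. Igfbp2 fell by 1.53 with an offset of -0.94, and the protease gene Htra1 fell by 1.41 with an offset of -1.13. Of 23 FGF genes 3 were higher and 0 lower, with a median of 0.13, where 5.68% of all genes were higher. The receptor Fgfr1 was at 216 to 285 against 147 to 184 CPM, a difference of 0.60 ± 0.14 with an offset of -0.07, and Fgfr2 differed by 0.42 with overlapping libraries. Sfrp1, a secreted Wnt antagonist, was at 17.6 to 38.3 against 7.41 to 16.4 CPM, a difference of 1.32 with an offset of -0.03. Its call was lost with the litters of the shared date.

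The genes that were lower in lambdoid SM without an offset between the sets included smooth muscle genes and Lgr5. Acta2, smooth muscle actin (chromosome 19, 34241090 to 34255590, minus strand), was at 88.1, 60.8, 46.7, 62.8 and 83.1 CPM in lambdoid and 109, 164, 292, 228 and 155 CPM in sagittal SM. The groups did not overlap. The difference was -1.51 ± 0.32 (adjusted p = 0.000274) with a set offset of -0.02, and it was -1.50 less the offset with an adjusted p of 0.262. With the litters of the shared date Acta2 and Actg2 had adjusted p of 0.0102 and 0.00686. Complete lambdoid sutures had 106 ± 8.72 CPM and complete sagittal sutures 303 ± 22.5 CPM of Acta2, a difference of -1.53.

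Actg2, the enteric smooth muscle actin, was lower likewise, with 8.06, 5.32, 3.8, 3.4 and 6.88 CPM against 14.6, 20.5, 35.8, 29.1 and 18.4 CPM. Its difference was -2.14 ± 0.46, its set offset -0.07, and its difference between complete sutures -2.07. Tagln and Myh11, also contractile genes, were lower by -3.03 and -2.31 with offsets of -1.89 and -0.74. Of 14 genes of the smooth muscle and pericyte list, 4 were lower (9.51% of all genes) and 2 higher (5.68%), the latter being Notch3 and the myosin kinase gene Mylk (1.42). The median of the list was -0.15.

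Lgr5, an R-spondin receptor that marks stem cells of several tissues (chromosome 10, 115450311 to 115587780, minus strand), was at 22.6, 9.4, 5, 6.57 and 15.3 CPM in lambdoid and 46.3, 44.4, 70.8, 42.5 and 52.1 CPM in sagittal SM. All sagittal libraries were above all lambdoid libraries. The difference was -2.16 ± 0.56 (adjusted p = 0.00344) with an offset of 0.18, and complete sutures differed by -2.79. The litters of the shared date gave an adjusted p of 0.0203. Ptprr, a tyrosine phosphatase of MAP kinases, was at 0.117 to 1.85 against 5.39 to 9.36 CPM, a difference of -3.34 with an offset of 0.17. Of the genes of tendon and ligament, 4 of 18 were lower and 2, Tnn and Thbs2, higher, where 9.51% of all genes were lower and 5.68% higher. In set L 6 were lower (17.6%) and 2 higher (15.1%). The median of the list was -0.13, and its summed levels overlapped, at 14130 to 17190 CPM in lambdoid and 13920 to 18250 CPM in sagittal SM. With the litters of the shared date 1 gene was lower (4.11% of all genes) and 0 higher (1.55%). Scx, the transcription factor of tendon progenitors, was at 3.4 to 8.53 against 16.6 to 56.1 CPM (difference -2.38, offset -1.34), Tnmd at 49.2 to 75.8 against 81.0 to 173 CPM (-1.12, offset -0.51), and the proteoglycan gene Fmod at 104 to 255 against 291 to 433 CPM (-1.05, offset -0.06). Cpxm2 was lower by -1.41 with an offset of -0.45. All 4 were lower in complete lambdoid sutures too, by -0.95 to -1.86.

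**Figure D4:**
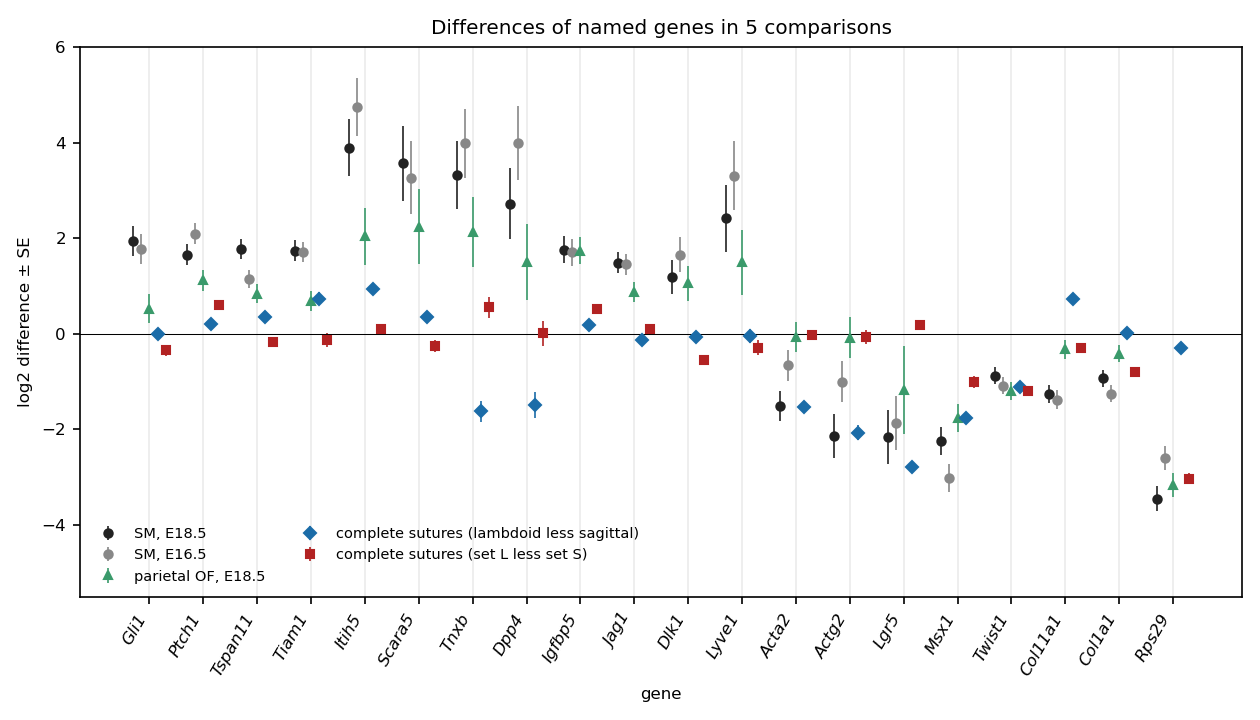
Log2 difference with its SE for 20 named genes in 5 comparisons, with lambdoid less sagittal in SM at E18.5 and E16.5, in the parietal OF and in complete sutures, and set L less set S in complete sutures. Rps29, Twist1 and Col1a1 have set offsets as large as or close to their SM differences, Gli1 and Tspan11 have set offsets of -0.35 and -0.17 against differences of 1.93 and 1.77, and Tnxb and Dpp4 differ in sign between SM and complete sutures.

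Of 52 patterning factors tested 11 were lower (9.51% of all genes) and 2 higher (5.68%), with a median of -0.12 and a median set offset of -0.19. Msx1, a homeobox factor of skull vault growth, was at 12.3, 6.06, 7.6, 4.7 and 3.38 CPM in lambdoid and 27.2, 27.1, 31.0, 28.2 and 43.3 CPM in sagittal SM. Its difference was -2.24 ± 0.29 (adjusted p = 2.45e-09) and its offset -1.01. Alx1, a factor of frontonasal mesenchyme, was lower by -2.13 with an offset of -0.43, and both genes were lower in complete lambdoid sutures, by -1.77 and -1.71. Foxc1, a factor of meninges and calvarial mesenchyme, and Twist1, a basic helix-loop-helix factor mutated in craniosynostosis, were lower by -1.51 and -0.88 with offsets of -1.02 and -1.20. Six2 was lower by -1.04 with an offset of -0.38.

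Among 25 osteoblast genes, 5 were lower (9.51% of all genes) and 1 higher (5.68%), with a median of -0.53, and in set L 14 were lower (17.6%) and 4 higher (15.1%). Of the same genes 17 were higher (10.7%) and 3 lower (13.6%) in complete lambdoid sutures, with a median of 1.01, and 7 were higher (5.51%) and 5 lower (6.7%) in lambdoid SM at E16.5. Col1a1, the main collagen gene of bone, was at 15670 to 19600 against 26360 to 36470 CPM, a difference of -0.93 with an offset of -0.80, and Pth1r, the receptor for parathyroid hormone, was lower by -0.93 with an offset of -1.02. Cadm1, a cell adhesion gene, was higher by 1.05 and lost its call without lambdoid replicate 5 or either of sagittal replicates 4 and 5. Of 23 interstitial collagens 7 were lower (9.51% of all genes) and 3 higher (5.68%), and in set L 14 were lower (17.6%) and 2 higher (15.1%). Col11a1, of the fibril-nucleating collagen of cartilage and bone, was at 471 to 801 against 1172 to 1842 CPM, a difference of -1.26 ± 0.20 with an offset of -0.29, and Postn, a matrix protein of sutures and periosteum, at 391 to 648 against 797 to 917 CPM, a difference of -0.73 with an offset of -0.23. Of 25 glycolysis and hypoxia genes 9 were lower (9.51% of all genes) and 0 higher (5.68%), and in set L 9 were lower (17.6%) and 2 higher (15.1%). Hk2, the first enzyme of glycolysis, was at 16.4 to 23.6 against 32.5 to 68.6 CPM, a difference of -1.46 with an offset of -0.74.

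The neuronal gene Stmn2 had the largest lower difference (-3.54 ± 0.69) among genes with known symbols, no overlap and at least 5 CPM in the sagittal mean. Tubb3 (-4.21) and Nr4a3 (-4.63), whose libraries overlapped, had larger ones. Of 13 central nervous system genes tested, 8 were lower in lambdoid SM (9.51% of all genes) and 0 higher (5.68%), with a median of -3.54. Their summed level was 48.5 to 84.8 CPM in lambdoid SM, 256.4 to 344.9 CPM in sagittal replicates 1 to 3, and 89.9 and 110 CPM in sagittal replicates 4 and 5. Dcx, a microtubule protein of migrating neurons, was at 53.5, 57.6 and 98.3 CPM in sagittal replicates 1 to 3, at 0.13 and 0.253 CPM in sagittal replicates 4 and 5, and at 0 in all lambdoid libraries but replicate 5, which had 10.8 CPM. Lambdoid replicate 5 and sagittal replicates 1 to 3 are littermates. Without sagittal replicates 1 to 3, 3 of the list's genes were lower (7.61% of all genes) and its median turned to 1.23. Tubb3, Dcx, Snap25 and Neurod6 then had positive differences that did not pass the test, while Stmn2, at 18.8 and 21.8 CPM in sagittal replicates 4 and 5 against 0.371 to 6.19 CPM in lambdoid SM, stayed lower (-2.69, adjusted p = 0.0161). Leaving these 3 libraries out gave 2018 genes in all (10.2%), 513 higher (2.6%) and 1505 lower (7.61%). In that fit Gli1 (2.83), Ptch1 (2.56), Tspan11 (2.11), Tiam1 (1.96) and Itih5 (3.51) were higher and Acta2 (-1.53), Actg2 (-2.16) and Lgr5 (-2.05) lower, all with an adjusted p under 0.05, and the difference less the set offset passed for 37 genes. Among skeletal muscle genes 3 of 22 were higher and 0 lower, where 5.68% of all genes were higher, namely Actc1 (4.49), Acta1 (4.21) and Ttn (1.89). With the litters of the shared date 0 of the 22 were called, with a median of -0.03. At E16.5 10 were higher (5.51%) and 0 lower (6.7%), and in complete lambdoid sutures 20 were higher (10.7%) and 1 lower (13.6%), with a median of 4.42. Their highest level was in lambdoid replicate 2, at 8.90, 9.03 and 48.7 CPM. The part of neuronal, muscle and blood RNA in the other differences was not tested.

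Several other calls of named genes rested on single libraries. Those of Clec3b (lambdoid replicate 2, sagittal 3 or 5), Sfrp2 (lambdoid 3 or 4, sagittal 1, 4 or 5), Crabp1 (lambdoid 2, 3 or 4, sagittal 4 or 5), Myh11 (lambdoid 3, 4 or 5), Tnmd (sagittal 4), Cpxm2 (lambdoid 4 or 5, sagittal 4 or 5), Fgfr2 (lambdoid 3, 4 or 5, sagittal 4 or 5), Ttn (lambdoid 1 or 2, sagittal 4 or 5), C1qa (lambdoid 3, sagittal 2, 3 or 5), Adgre1 (lambdoid 2), Dcx and Neurod6 (lambdoid 1 to 4, sagittal 3) and Snap25 (lambdoid 2, 3 or 4) were lost when the library in brackets was left out. Gli1, Tspan11, Tiam1, Itih5, Ptch1, Acta2, Actg2, Lgr5, Igfbp5, Jag1, Msx1 and Col11a1 kept their SM calls in all 10 such fits.

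The parietal OF of the same embryos gave a comparison in which a shift shared by both regions of an embryo cancels. Lambdoid and sagittal parietal OF differed for 2828 genes (14.3%), 1089 higher (5.51%) and 1739 lower (8.8%). Of the 3001 genes that differed in SM, 1911 differed the same way in the OF (63.7%) and 1 the opposite way. In the fit of all captured groups 0 genes had an SM difference that departed from the OF difference (edgeR, 0% of genes tested, 567 at an unadjusted p under 0.05, and 0 by limma-voom). With the embryo as a block, on the 20 libraries of both regions, 23 genes did so (0.116%), 5 of them higher (0.0253%) and 18 lower (0.0911%), while the same 20 libraries without the block gave 7.

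Both Gli1 and Tspan11 were among the 5. The SM difference exceeded the OF difference by 1.45 for Gli1 (adjusted p = 0.0192) and by 0.91 for Tspan11 (adjusted p = 0.0159). In the OF Gli1 was at 106 ± 7.65 CPM in lambdoid and 73.7 ± 12.1 CPM in sagittal embryos, above its level in sagittal SM, and its difference of 0.53 did not pass the test (adjusted p = 0.267). The other 3 were Adgrd1, an adhesion receptor, Frem1, a basement membrane protein, and the immediate-early gene Egr1, and they are named because the count is small. Among the 18 that were lower, Acta2 (-1.43) and Actg2 (-2.10) had the smallest p (both adjusted p = 0.00254). Their OF levels were alike, at 123 ± 24.8 and 129 ± 33.4 CPM for Acta2, with an OF difference of -0.06 ± 0.33. Col11a1 (-0.97), Fmod (-1.19) and Postn (-1.01) were also among the 18. Ptch1 was higher in the OF too (900.5 ± 90.7 against 413.7 ± 59.3 CPM, difference 1.12), and its excess in SM of 0.54 did not pass (adjusted p = 0.633).

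At E16.5, in other embryos, lambdoid and sagittal SM differed for 2415 genes (12.2%), 1090 higher (5.51%) and 1325 lower (6.7%). The litter identifiers of the lambdoid and sagittal embryos of this age share no date, so suture and litter date cannot be told apart there. Of the 3001 genes of E18.5, 1582 differed the same way (52.7% of the E18.5 and 65.5% of the E16.5 genes) and 4 the opposite way, and 228 of these genes were not among those that differed between the sets, 164 higher and 64 lower. Gli1 was at 47.6 ± 14.3 and 13.5 ± 3.42 CPM (difference 1.77), Ptch1 at 271 ± 101 and 61.6 ± 10.6 CPM (2.10), Tspan11 at 70.8 ± 15.01 and 31.1 ± 1.03 CPM (1.15), Tiam1 at 67.9 ± 4.33 and 20.1 ± 5.03 CPM (1.71), and Itih5 at 149 ± 118 and 5.404 ± 3.57 CPM (4.75), all higher in lambdoid SM with an adjusted p under 0.05. Lgr5 was lower by -1.87 (adjusted p = 0.0163), while Acta2 and Actg2 differed by -0.66 and -1.0 and did not pass (adjusted p = 0.184 and 0.129). Ribosomal protein genes were lower at this age too, 79 of 82 with a median of -1.75. Of the 20 dermis and fascia fibroblast genes 12 were higher (5.51% of all genes) and 3 lower (6.7%), with a median of 1.55.

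The difference between the sutures changed with age for 39 genes (0.197%), of which 38 (0.192%) had a lower lambdoid less sagittal difference at E18.5 than at E16.5 and 1 (0.00506%) a higher one. With limma-voom 1 gene passed, in the higher direction, and 0 in the lower direction. Without sagittal replicates 1 to 3, a choice made after the data were seen, 5 genes passed, 2 higher and 3 lower.

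Hhip was at 24.2 to 55.3 CPM in lambdoid and 2.16 to 9.32 CPM in sagittal SM at E16.5, a difference of 3.15 (adjusted p = 2.27e-10), against 0.79 at E18.5. The change of -2.36 had an adjusted p of 0.00945 (0.707 with limma-voom), and without sagittal replicates 1 to 3 it was -0.94 (adjusted p = 1). Of 25 osteoblast genes 3 were among the lower ones (0.192% of all genes), namely Alpl, Panx3 and Smpd3. Alpl, tissue-nonspecific alkaline phosphatase, was at 44.5 ± 23.1 and 8.74 ± 3.43 CPM at E16.5 and at 17.8 ± 8.88 and 15.1 ± 11.6 CPM at E18.5, a change of -2.10 (adjusted p = 0.0084). The channel gene Panx3 had 51.7 ± 41.4 and 7.43 ± 2.68 CPM at E16.5 and 14.3 ± 11.5 and 18.53 ± 15.8 CPM at E18.5, a change of -3.16 (adjusted p = 0.00128). Smpd3, a sphingomyelinase needed for bone mineralization, and Dlx3, a homeobox factor of osteoblasts, changed by -3.63 and -6.43. Dlx3 was low, with lambdoid and sagittal means of 4.62 and 0.172 CPM at E16.5 and 0.36 and 1.23 CPM at E18.5. With limma-voom none of these 4 changes passed (each adjusted p = 1). Without sagittal replicates 1 to 3 they were -0.33 for Alpl, -1.63 for Panx3, -2.42 for Smpd3 and -5.26 for Dlx3, and none passed (adjusted p = 0.498 to 1). At E18.5 sagittal replicates 4 and 5 were at 4.55 and 5.25 CPM of Hhip, 6.76 and 2.15 CPM of Alpl, and 9.36 and 3.54 CPM of Panx3, beside 2.16 to 9.32, 5.66 to 14.1 and 5.14 to 11.1 CPM in the sagittal libraries of E16.5. The litter identifiers of all sagittal embryos of E16.5 bear a date in the same month as those of sagittal replicates 4 and 5 of E18.5. The part of litter date in the change with age was not tested. Without sagittal replicates 1 to 3 the E18.5 differences were 2.18 for Hhip (adjusted p = 0.000952), 1.95 for Alpl (0.000234), 1.10 for Panx3 (0.204) and 0.65 for Smpd3 (0.693). For Hhip, Alpl, Panx3 and Smpd3 the E18.5 libraries of the sutures overlapped, with sagittal replicate 1 or lambdoid replicate 3 the highest. Hk2 did not differ by the test at E16.5 (0.35, adjusted p = 0.367) and changed by -1.81 (adjusted p = 0.00086, with limma-voom 0.0804). Its change was -2.12 without sagittal replicates 1 to 3 (adjusted p = 0.000623). The neuronal gene Tubb3 (-6.05) and Nr4a3 (-4.74) were also among the 39, and both were high in sagittal replicates 1 to 3 at E18.5. Without these libraries their changes were 2.01 and -1.74 and did not pass (both adjusted p = 1).

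**Figure D5:**
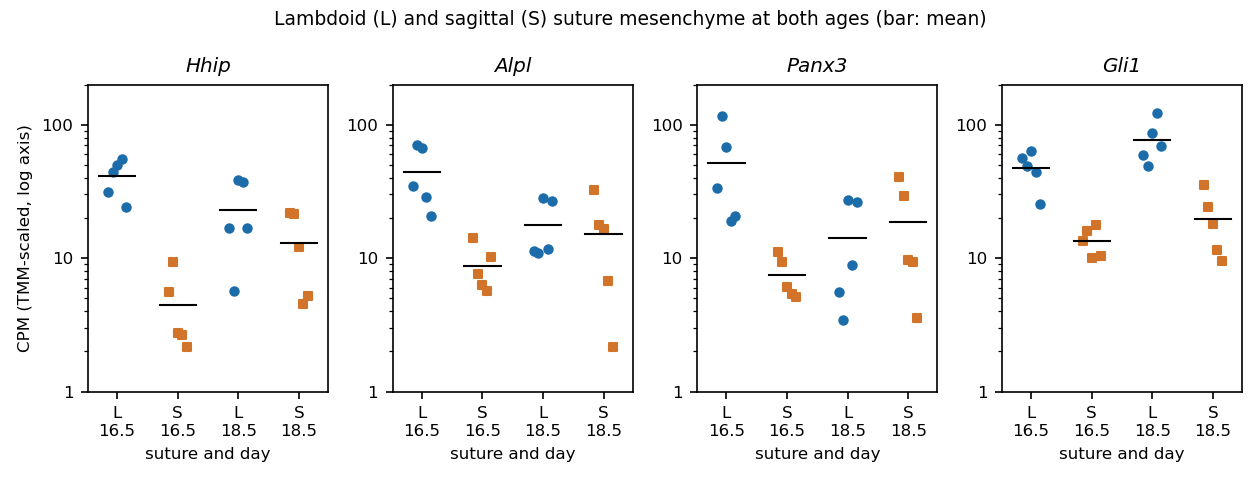
CPM on a log axis of Hhip, Alpl, Panx3 and Gli1 in the 5 lambdoid (L) and 5 sagittal (S) SM libraries of E16.5 and of E18.5, with bars at the means. Hhip, Alpl and Panx3 separate the sutures at E16.5 and overlap at E18.5, where sagittal replicates 1 to 3 lie mostly above replicates 4 and 5, while Gli1 separates them at both ages.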

How the data were processed

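Raw read counts per gene were the values deposited by the authors, who trimmed reads with cutadapt, aligned them to mm10 with STAR 2.5.3a and counted read pairs without strand against GENCODE vM22 with featureCounts 1.6.4, so reads of a gene and of an overlapping or antisense gene cannot be told apart. RNA from laser-captured tissue had been amplified with the Ovation V2 kit and made into Nextera XT libraries.

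Samples were grouped by GEO's labels. Of 55487 genes, the 19768 that reached 1 CPM in more than 10% of the 100 captured libraries (20 groups of 5) were tested, and named through a table of gene identifiers that matched 55394. Counts were TMM-scaled and fitted with edgeR 4.0.16 (R 4.3.3) by the quasi-likelihood test, two-sided, with 1 mean per captured group, additive suture and set means for the 16 complete sutures, and Benjamini-Hochberg adjustment over all genes at 0.05. SEs were taken from the quasi-likelihood F. DESeq2 1.42.0, limma-voom (limma 3.58.1), other scalings and filters, left-out libraries and blocks were alternatives. In counts simulated for the lambdoid and sagittal SM comparison on 19768 genes, 54 of 200 genes changed 2-fold were recovered with 0 false calls, and 128 of 200 changed 4-fold with 5. Depths are given with the groups, and lower lambdoid depth widens the error of low genes. Replicates were separate embryos, but several within a group were littermates at both ages. The main fits held no term for litter, so their adjusted p treat littermates as independent. SM and OF of the same number carry the same embryo identifier, which is where the pairing of the 2 regions comes from. Their deviations from the group means correlated by 0.00285 to 0.26 (median 0.0934, 5 of 10 embryos over 0.1).

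The genes named were, in each direction, the 10 with the largest change among those with an adjusted p under 0.05, at least 5 CPM in the higher group, no overlap and a symbol of a known gene, those of the same kind that also passed the threshold less the set offset, up to 4 called members of each of 43 lists, and identity markers. Other genes were added after their values were seen, among them Smo, Gli3, Boc, Gas1, the genes of the age and embryo-block contrasts and the set of ribosomal protein genes. The members and lists were chosen with earlier results of these data known. A further 18 second libraries and 4 single-cell samples were not used here. No sequence is shown, since the values are counts over whole genes.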

Additional observations from a re-analysis of the deposited data

Results flagged for a closer look

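Among the named genes, 13 of 192 groups of 5 libraries held a value far from the other 4 by Dixon's criterion, which chance alone gives in about 1 in 20 groups tested. Of these, 5 were in lambdoid replicate 5, the littermate of sagittal replicates 1 to 3, namely Dcx (10.8 CPM against 0 in the others), Neurod6 (1.52 against 0), Snap25 (1.52 against 0 to 0.356), Notch1 (47.7 against 27.6 to 30.6), and Ihh (1.4 against 0.117 to 0.217). Lambdoid replicate 2 stood apart for Tmeff2 (26.8 CPM against 3.96 to 8.65) and Adgre1 (29.6 against 8.97 to 14.6), and lambdoid replicate 3 for Rps29 (23.3 against 17.9 to 19.1). Sagittal replicate 5 stood apart for Sufu (32.2 against 33.3 to 33.8), Tnxb (6.13 against 3.05 to 3.72) and Msx1 (43.3 against 27.1 to 31.0), sagittal replicate 1 for Igfbp5 (1260 against 975 to 1030) and sagittal replicate 2 for C1qc (7.61 against 10.4 to 11.3).

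The lambdoid less sagittal difference itself differed between E18.5 and E16.5 for 39 genes by edgeR's test of that change. Of the genes named, Hhip changed by -2.36 (adjusted p = 0.00945), Alpl by -2.10 (0.0084), Panx3 by -3.16 (0.00128), Smpd3 by -3.63 (0.0106), Dlx3 by -6.43 (0.00231), Hk2 by -1.81 (0.00086), Tubb3 by -6.05 (0.00846) and Nr4a3 by -4.74 (0.00846). With limma-voom none of these 8 passed (adjusted p = 0.0804 to 1), and without sagittal replicates 1 to 3 only Hk2 did (-2.12, adjusted p = 0.000623). The difference of Tubb3 went from 1.85 at E16.5 to -4.21 at E18.5 and that of Nr4a3 from 0.11 to -4.63. The part of litter, dissection and library preparation in these changes was not tested.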

How the results depend on the processing

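The count of genes that differed between lambdoid and sagittal SM, 3001, was 2996 with filterByExpr (23404 genes tested), 2459 without a filter on low counts, 3120 with median-ratio size factors, 2918 with total counts, 3577 with DESeq2 (1759 higher, 1818 lower), 2432 with limma-voom, and 2379 to 2874 without 1 library. It was 1118 with the litters of the shared date, which leaves 3 libraries a group, and 4894 with the spread estimated from the 10 SM libraries. The replicate block on these 10 gave 3935, 1492 higher and 2443 lower. The replicate numbers do not pair lambdoid with sagittal embryos, and the deviations of same-numbered libraries correlated by -0.12 to 0.0394. Those of lambdoid replicate 5 and its littermates, sagittal replicates 1 to 3, correlated by 0.0435 to 0.143. The SM difference less the set offset held 11 genes with limma-voom, 202 on the 10 SM and 8 control libraries, 5 with total counts, 6 to 15 without 1 library (11 without lambdoid replicate 5 or sagittal replicate 2, 15 without sagittal replicate 3) and 37 without sagittal replicates 1 to 3. The SM difference less the OF difference held 0 genes in each fit without 1 library, 7 on the 20 libraries of both regions and 23 with the embryo as the replicate block. The change with age held 1 gene with limma-voom and 5 without sagittal replicates 1 to 3 in place of 39. Complete lambdoid and sagittal sutures differed for 2496 genes with sets L and S alone and for 3685 to 4030 without 1 set, in place of 4807. Set L and set S differed for 7048 genes with total counts, 4388 higher and 2660 lower. Leaving out sagittal replicates 1 to 3 was chosen after the data were seen and reversed 4 neuronal genes, Tubb3 (3.84), Dcx (3.41), Neurod6 (5.24) and Snap25 (1.23). Over 96 named genes and 20 alternatives, 1733 of 1920 values stayed on the same side of the threshold with the same sign, 164 lost and 19 gained a call, and 4 reversed. Of the calls lost, 41 were with the litters of the shared date. The cause of these changes was not tested. Fits with fewer libraries have less information, though some of them held more genes than the main fit. Depth was lower in all lambdoid libraries, which limits low genes most.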
